A study of Homo sapiens with 5 samples.

Results

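PHF8 binding was examined at 10 genes that encode transforming growth factor beta (TGFβ) ligands, related activin subunits, the latent TGFβ binding proteins and the TGFβ-induced matrix protein TGFBI. They were taken as a fixed list of 10 among 20162 annotated protein-coding genes, namely TGFB1, TGFB2, TGFB3, TGFBI, INHBA, INHBB, LTBP1, LTBP2, LTBP3 and LTBP4. PHF8 peaks were assigned to them in each replicate when a peak came within 1 kb of any annotated transcription start of the gene, called a promoter peak here, or lay elsewhere over its body. Chromatin immunoprecipitation followed by sequencing (ChIP-seq) had been performed with an anti-PHF8 antibody in cells of the human melanoma line SKMEL-147. PHF8 is a Jumonji-type histone demethylase, and the experiment maps its genomic targets. The samples were 3 PHF8 ChIP replicates, named A, B1 and B2, and 2 inputs. The design text of the series names an sgRNA loss-of-function model of PHF8 in this line, but the labels of these 5 samples give no treatment or genetic change, and all values come from 1 cell line, so bound genes are described and no condition is compared. No control immunoprecipitation is analysed here beyond the inputs. Replicates B1 and B2 share a letter and only 1 input bears it. Whether they share that input or a culture is not stated, so SDs and tests over n = 3 may rest on fewer than 3 independent samples and measure only the spread between these samples.

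TGFβ ligands are made as precursors whose propeptide stays attached and keeps the growth factor inactive. Latent TGFβ binding proteins (LTBPs) are large relatives of fibrillin that link this latent complex to the extracellular matrix, from which integrins, proteases and thrombospondin can release it. Activins are dimers of the subunits encoded by INHBA and INHBB and signal through their own receptors to the same SMAD proteins. In melanoma the pathway is known for its part in growth arrest of early lesions and in invasion and metastasis of later ones.

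PHF8 had a promoter peak in all 3 replicates at 9 of the 10 genes (90%), and INHBB was the exception. Of all protein-coding genes, 60.2% had such a peak. The list was chosen with earlier results of these data known, so these shares are described and their difference was not tested. The levels of the 9 bound genes were low. Fold enrichment over input at the strongest promoter peak had a median over these genes of 8.97, 7.72 and 8.21 in A, B1 and B2, against 33.4, 19.4 and 18.4 over the 12139 protein-coding genes bound in all 3 replicates. Ranked among those bound genes, the members had a median percentile of 3.10, 7.29 and 9.72 in A, B1 and B2, a mean of 6.70 ± 3.35 (SD, n = 3). The mean percentile of single genes ran from 3.26 for TGFB3 to 24.2 for LTBP1. In single replicates LTBP1 reached percentile 25.6 in A and 25.9 in B1 and TGFBI 25.2 in B2, just above the lower quartile of bound genes, and the other values of the 9 genes lay below it. Every one of the 27 strongest promoter peaks was far past the q cutoff of 0.05, with -log10 q-values from 8.20 to 74.2. At a fold enrichment above 10, LTBP1 and TGFBI were the 2 members bound in all 3 replicates, while 49.6% of protein-coding genes were.

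The lists held 20120 to 21506 peaks, of which 25, 23 and 21 in A, B1 and B2 belonged to the 10 genes. Merged where they overlapped, these peaks marked 26 places, 16 of them seen in all 3 replicates, 5 in a pair and 5 in a single one. The 5 places of a single replicate had fold enrichments of 6.62 for TGFB2, 5.41 for INHBA and 5.12 for LTBP4 in A. LTBP3 had the others, at 4.77 in B1 and 3.59 in B2. Places shared by all 3 replicates also reached such low values, down to 3.29 for LTBP4 in B2. How many reads each library held is unknown here. The fragments at a summit follow from its fold enrichment and p-value, and the strongest promoter peaks of the 9 genes carried 17 to 66 fragments. Intervals below are exact 95% Poisson intervals of that number carried over to fold enrichment, and cover counting error only. The 3 lists differ in scale, so levels are compared between genes within a replicate.

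**Figure D1:**
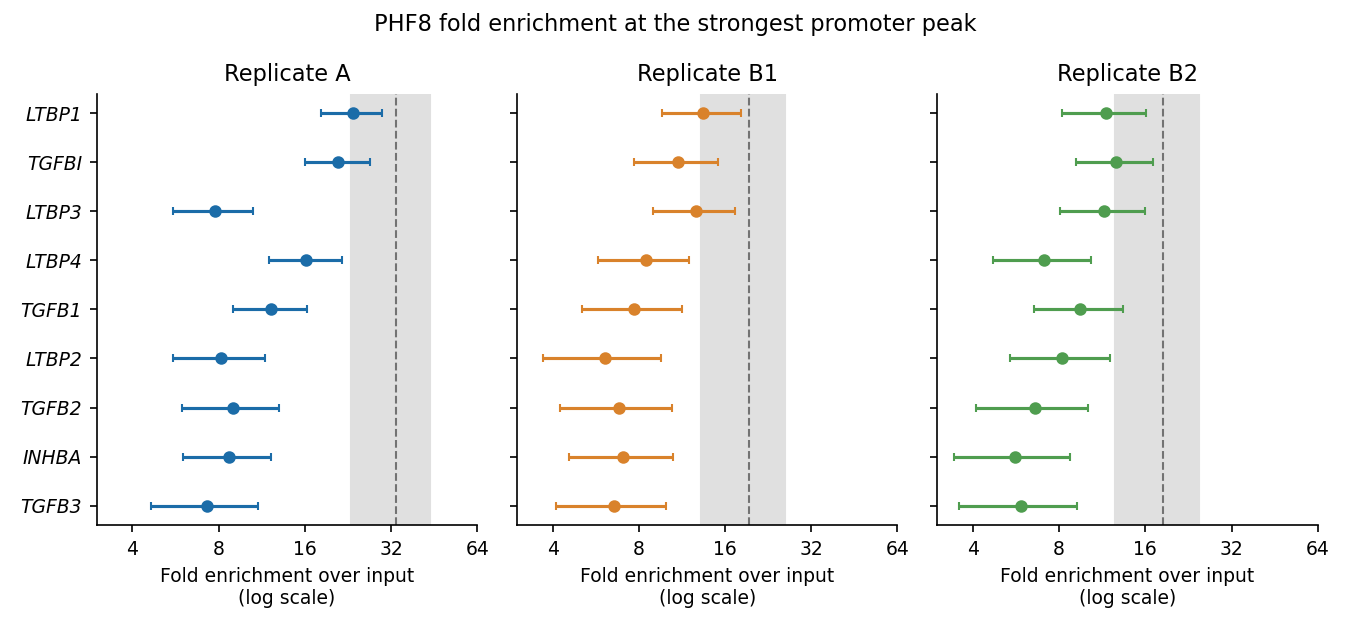
Fold enrichment over input (log axis) at the strongest promoter peak of the 9 bound genes in replicates A, B1 and B2, with exact 95% Poisson counting intervals. The dashed line is the median and the grey band the interquartile range of all 12139 bound protein-coding genes, and all 9 genes lie left of the median in each replicate.

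Sequences shared by the peaks of all 3 replicates are shown first for genes whose peak lay at or near the canonical start, the start of the transcript that the annotation marks as representative. They are read in the direction of the gene from the human build GRCh37 (hg19) and leave out annotated UTRs and exons of non-coding transcripts. The TGFB1, LTBP1, LTBP3 and TGFBI stretches therefore lie beside the summits and do not hold them. The LTBP2 stretch, and the INHBA stretch further below, hold the summits of A and B1 but not that of B2. TGFB2 left no stretch long enough to show. Every CpG dinucleotide is in capitals, because CpG content is set beside binding below. Over all peaks of a list, the 501 bp around a summit held a median of 39 to 41 CpG. The same window around all 19881 canonical starts, bound or not, held a median of 40. The TGFB1 stretch is the 60 bp before its start (chr19:41859828-41859887, minus strand), and the LTBP1 stretch the 92 bp before its start (chr2:33171928-33172019, plus strand). The LTBP2 stretch covers chr14:75079082-75079231 (minus strand), the LTBP3 stretch chr11:65325831-65325980 (minus strand) and the TGFBI stretch, which lies 202 to 288 bp inside the gene, chr5:135364879-135364965 (plus strand).
TGFB1: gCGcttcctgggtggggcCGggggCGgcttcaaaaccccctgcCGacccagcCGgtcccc
LTBP1: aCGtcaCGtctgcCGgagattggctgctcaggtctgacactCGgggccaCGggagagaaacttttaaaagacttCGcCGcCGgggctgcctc
LTBP2: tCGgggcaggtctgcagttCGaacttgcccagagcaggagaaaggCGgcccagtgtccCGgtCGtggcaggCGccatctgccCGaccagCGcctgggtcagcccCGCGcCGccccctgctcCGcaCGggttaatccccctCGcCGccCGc
LTBP3: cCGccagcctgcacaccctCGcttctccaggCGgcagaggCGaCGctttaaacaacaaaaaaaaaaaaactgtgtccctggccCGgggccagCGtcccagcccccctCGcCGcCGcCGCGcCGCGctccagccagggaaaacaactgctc
TGFBI: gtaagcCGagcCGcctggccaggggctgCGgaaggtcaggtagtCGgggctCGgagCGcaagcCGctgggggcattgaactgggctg
These stretches hold 5, 8, 16, 14 and 7 CpG. They differ in length, so their CpG numbers are not compared with each other. INHBA, bound away from its canonical start, and INHBB are shown apart. The INHBA stretch of 114 bp (chr7:41745070-41745183, minus strand) holds 1 CpG, although the wider 501 bp around its summits held 27 to 29. The 501 bp around the strongest TGFB2 summits held 17 to 19, and those around a further TGFB2 summit held 46 in A and 47 in B2. The 150 bp before the start of INHBB (chr2:121103562-121103711, plus strand), where no replicate had a peak, hold 27.
INHBA: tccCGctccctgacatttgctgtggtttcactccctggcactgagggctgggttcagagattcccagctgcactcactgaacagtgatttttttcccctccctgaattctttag
INHBB: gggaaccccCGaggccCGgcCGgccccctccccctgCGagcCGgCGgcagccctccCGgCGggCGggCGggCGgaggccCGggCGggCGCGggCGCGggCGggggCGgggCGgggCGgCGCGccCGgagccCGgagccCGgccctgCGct

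Among the ligands, TGFB1 had the highest level. It encodes the most widely expressed TGFβ isoform. The gene lies on the minus strand (ENSG00000105329, chr19:41807492-41859827), and the peak at its canonical start had a fold enrichment of 12.2 (8.96 to 16.3), 7.72 (5.06 to 11.3) and 9.50 (6.55 to 13.4) in A, B1 and B2, and its percentile averaged 9.03 ± 3.72 (SD, n = 3). The summits lay 115 to 151 bp downstream of the start, in the UTR. A second, weaker promoter peak was found in each replicate over coding sequence, at 5.17, 5.58 and 4.81 in A, B1 and B2, near an alternative start 878 bp downstream. The 1 kb window of TMEM91, the neighbouring gene on the plus strand, also met the main peak, with summits 362 to 398 bp before the TMEM91 start.

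The strongest peak over TGFB1 was not at its promoter. In all 3 replicates a peak of 33.6, 20.4 and 19.9 fold lay about 43.6 kb inside the gene (chr19:41815706-41816738, an intron of TGFB1), at percentile 74.7 to 76.6 of the peaks of its list. Its summits were 141 to 191 bp from the start of the protein-coding gene CCDC97 and 49 to 99 bp from that of the lncRNA ENSG00000286177, so by position it was a promoter peak of these genes and only overlapped TGFB1. This peak was 2.75, 2.65 and 2.10 times the TGFB1 promoter peak. Among all peaks of its list, the main TGFB1 promoter peak lay at percentile 33.7 in B1 to 40.4 in B2, with A between them. Percentiles over all peaks of a list are a different scale from the percentiles among bound genes given for the promoter peaks, and the 2 are not compared.

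TGFB2 and TGFB3 encode the other isoforms, which act in development and wound repair. TGFB2 (ENSG00000092969, chr1:218518678-218617961, plus strand) reached 8.97, 6.82 and 6.57 in A, B1 and B2, with the strongest summit 92 to 134 bp downstream of its start. In A and B2 a separate peak lay 522 to 546 bp downstream of the TGFB2 start, within 20 bp of the start of the antisense lncRNA TGFB2-AS1, while B1 had 1 peak across both places. ChIP fragments carry no strand of transcription, so peaks of TGFB2 and TGFB2-AS1 cannot be told apart. TGFB3 (ENSG00000119699, chr14:76424440-76449354, minus strand) had the lowest mean of the 9, at 7.31, 6.54 and 5.91 in A, B1 and B2, although LTBP2 was lower in B1 and INHBA in B2. It had a pair of separate peaks in each replicate, 1 with its summit 398 to 438 bp before the canonical start and 1 with its summit 108 to 133 bp after it. The upstream peak was the higher in A and B1 (7.31 against 3.53, and 6.54 against 4.77) and the downstream peak in B2 (5.91 against 4.17). Their difference therefore did not keep its direction over the replicates. The upstream peak of TGFB3 was in CpG-rich DNA that the canonical start itself lacked, with 17 CpG in the 150 bp shown here (chr14:76448675-76448824, minus strand).
TGFB3: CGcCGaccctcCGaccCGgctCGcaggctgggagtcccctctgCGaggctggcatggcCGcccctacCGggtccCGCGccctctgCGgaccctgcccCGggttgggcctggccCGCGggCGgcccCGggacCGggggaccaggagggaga
The 501 bp around the canonical start of TGFB3 also held 17 CpG, and those around the upstream summit in A held 49.

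TGFBI encodes a secreted matrix protein that binds integrins and collagen and was named for its induction by TGFβ. Its only peak (ENSG00000120708, chr5:135364677-135399507, plus strand) was among the stronger ones of the set, at 20.9 (16.0 to 26.9), 10.9 (7.67 to 15.2) and 12.6 (9.14 to 17.0) in A, B1 and B2, with a mean percentile of 20.8 ± 4.04 (SD, n = 3). The 3 summits fell within 12 bp of each other within coding sequence, 116 to 128 bp downstream of the canonical start. Of 14 annotated starts of TGFBI, the 3 nearest the 5′ end of the gene were within 1 kb of a peak in all 3 replicates. The internal starts of shorter protein-coding transcripts, 18.3 to 30.2 kb downstream, had none.

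The activin subunit genes were the members without a peak at the canonical start. INHBA (ENSG00000122641, chr7:41706766-41745432, minus strand) encodes the subunit of activin A. It was bound at 8.70, 7.07 and 5.62 in A, B1 and B2, a mean percentile of 3.82 ± 1.64 (SD, n = 3), but no peak lay within 1 kb of its canonical start in any replicate. The summits were 2440 to 2508 bp before that start, between the 5′ ends of the transcripts INHBA-205 and INHBA-202. They lay 12 to 56 bp from the start of the lncRNA INHBA-AS1 on the other strand, nearer than to any INHBA start (195 to 236 bp). Peaks of INHBA and INHBA-AS1 therefore cannot be told apart, and INHBA counts as bound only through them. The 501 bp around the canonical start held 2 CpG, fewer than at most canonical starts (percentile 2.77) and fewer than around the bound summits.

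INHBB (ENSG00000163083, chr2:121103712-121109379, plus strand) encodes the subunit of activin B. Neither its single annotated start nor its body had a peak in any replicate. The nearest peaks lay 92.4 to 92.5 kb upstream in all 3 replicates, at the promoter of RALB, and 515 kb downstream. No peak anywhere in the lists had fewer than 8 fragments at its summit in A and B1, or 10 in B2. The number needed at a given site also depends on its background, which is not known at INHBB. Weaker binding at INHBB could therefore have gone uncalled, and its limit cannot be given. The start of INHBB was CpG-rich, with 83 CpG in 501 bp (percentile 98.7 of canonical starts). Of the 270 canonical starts with at least as many CpG, 75.2% were bound in all 3 replicates. The GC content around INHBB was 84.8%, and of the 50 canonical starts at or above it 68.0% were bound. The part of base composition in the missing peak was not tested.

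The 4 LTBP genes were all bound, over a wider range than the ligands. LTBP1, whose product binds the latent complexes of all TGFβ isoforms, had the highest mean percentile of the set at 24.2 ± 2.66 (SD, n = 3). The gene is long (ENSG00000049323, chr2:33172020-33624576, plus strand, 453 kb) and its fold enrichment was 23.5 (18.3 to 29.8), 13.4 (9.60 to 18.1) and 11.6 (8.21 to 16.1) in A, B1 and B2. Binding was seen at 1 of its 12 annotated starts, the canonical one, with summits 89 to 115 bp downstream of it. LTBP1 has long and short forms that are made from separate promoters. The internal cluster of protein-coding starts 187.5 to 187.7 kb downstream had no peak in any replicate, and no peak was found anywhere else over the gene.

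LTBP2 (ENSG00000119681, chr14:74964886-75079081, minus strand) encodes the family member known not to bind latent TGFβ. It was bound at 8.16, 6.10 and 8.21 in A, B1 and B2, a mean percentile of 5.08 ± 4.06, with the summits 139 to 238 bp before the canonical start. LTBP3 (ENSG00000168056, chr11:65306030-65326401, minus strand) was the only gene of the 9 with its lowest fold enrichment in A, the list with the highest scale. Its values were 7.77, 12.6 and 11.5 in A, B1 and B2, and its percentile was 1.93, 22.5 and 20.6 in A, B1 and B2. The numbers of fragments at the summit were nearly equal (38, 36 and 34), and the background that the fold is taken over was 4.02 fragments in A against 1.93 in B1 and 2.04 in B2. Ranked by fragments in place of fold enrichment, LTBP3 lay at percentile 8.20, 17.5 and 15.8 in A, B1 and B2.

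LTBP1 and LTBP3 had low but wide peaks. The strongest peak of LTBP1 was 1460 ± 221 bp wide (SD, n = 3) and that of LTBP3 1281 ± 281 bp, at mean width percentiles of 93.6 and 87.1 among the strongest peaks of bound genes. Median widths over all bound genes were 824 bp in A, 720 in B1 and 673 in B2. The INHBA peak was among the narrowest, at 267 ± 35.3 bp and a mean width percentile of 4.81. Width and level thus gave different orders of the 9 genes, with LTBP3 and LTBP2 wider than TGFBI although their peaks were lower in the mean.

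**Figure D2:**
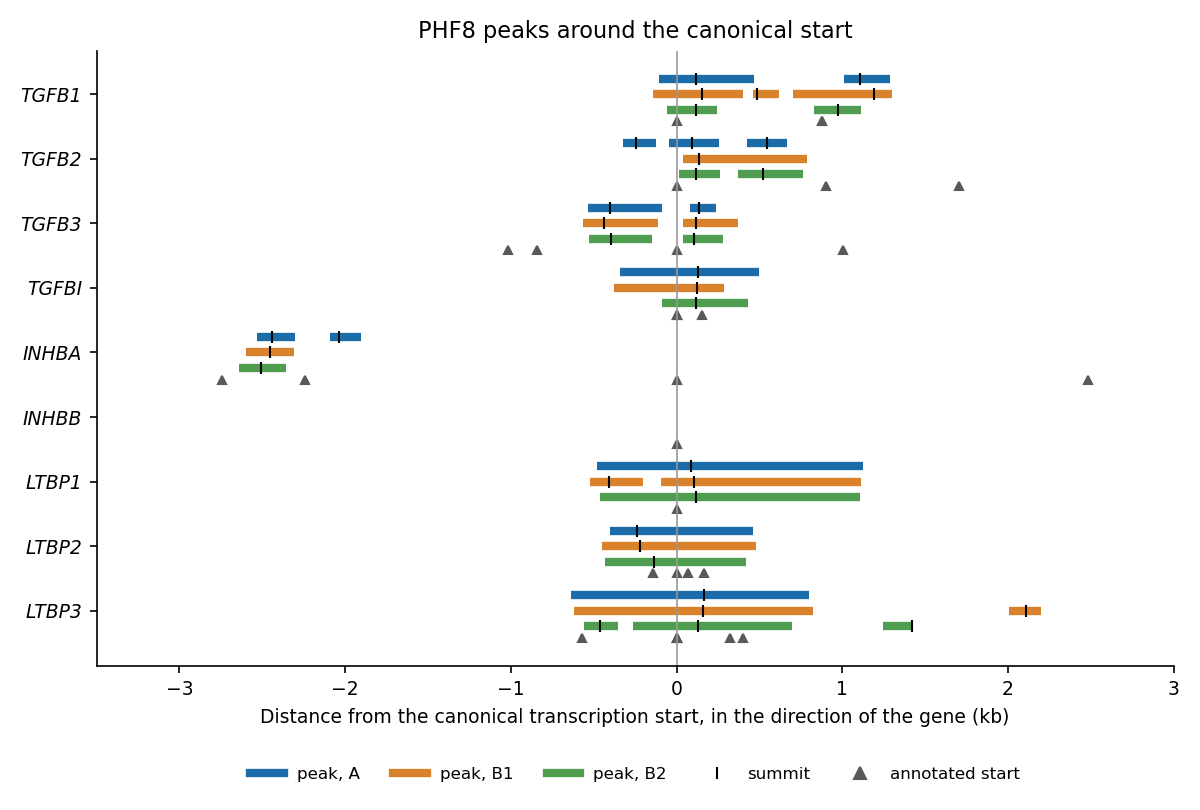
PHF8 peaks of replicates A, B1 and B2 (bars, with summits as black ticks) around the canonical start of 9 genes, as distance in kb in the direction of the gene, with triangles for annotated starts. LTBP1 and LTBP3 carry the widest peaks, the INHBA summits lie more than 2 kb upstream of the canonical start, and INHBB has no peak. Peaks further away are not drawn.

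LTBP4 differed from the rest in the number of its peaks. Its product is needed for elastic fibre assembly and can bind latent TGFβ1. The gene (ENSG00000090006, chr19:41098789-41135723, plus strand) carried 11 peaks in A, 9 in B1 and 7 in B2, in 11 places of which 5 were shared by all 3 replicates and 5 by a pair of them. The highest was at an internal start 8377 bp downstream of the canonical one (chr19:41115489-41115949), with 16.2 (12.0 to 21.5), 8.44 (5.75 to 12.0) and 7.09 (4.69 to 10.3) in A, B1 and B2. The peak at the canonical start (chr19:41107210-41107575) had 7.31, 8.30 and 6.23, and the peak at the start of LTBP4-203, 4134 bp upstream (chr19:41103109-41103454), had 12.6, 6.19 and 4.04. Near the remaining internal starts, chr19:41111109-41111811 had 7.27, 5.00 and 6.28, and chr19:41119599-41119973 had 7.77, 6.41 and 3.29. A further peak of 13.5 in A and 6.59 in B1, 13.4 to 13.5 kb downstream of the canonical start, was not called in B2. No peak lay within 1 kb of the most upstream start of the gene in any replicate.

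The peak at the internal start is shown because it is the highest over LTBP4 (chr19:41115727-41115876, plus strand). It begins with 51 coding bases, runs on into an intron and holds 11 CpG.
LTBP4: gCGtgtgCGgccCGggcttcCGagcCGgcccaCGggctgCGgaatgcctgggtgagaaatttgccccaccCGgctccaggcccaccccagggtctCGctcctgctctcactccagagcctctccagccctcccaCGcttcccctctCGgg
Counting the peaks of A that overlapped a peak in both other lists, LTBP4 had 5, and 115 of the 20162 protein-coding genes had at least as many. LTBP4 has 35 distinct annotated starts, more than 99.1% of genes. Peaks near a start or over the gene body were counted, and every LTBP4 peak lay inside the gene, so its internal starts added none to the count. Among the 190 protein-coding genes with at least 35 starts, 6 had 5 or more such peaks, and their median was 1.

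**Figure D3:**
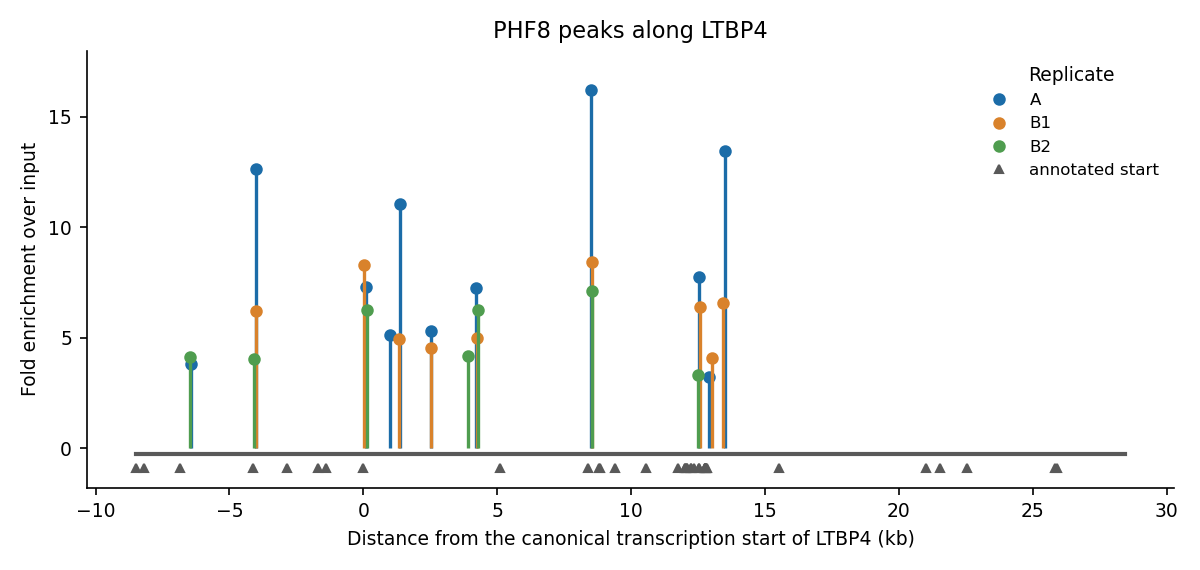
Fold enrichment over input of each PHF8 peak along LTBP4 in replicates A, B1 and B2, placed at its summit in kb from the canonical start, with the gene as a grey line and annotated starts as triangles. Peaks are spread over about 20 kb of the gene, and the highest in A, at 16.2, stands 8.5 kb downstream of the canonical start.

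Over the gene bodies, outside the 1 kb windows, TGFB1 and LTBP4 had a peak in all 3 replicates (2 of 10), where 6.25% of protein-coding genes did. The TGFB1 peak is the one at CCDC97. For LTBP4 the peaks were in the same places in A and B1 (chr19:41108513-41108774, at 11.1 and 4.96, and chr19:41109737-41109924, at 5.29 and 4.55), and the B2 peak (4.19) was elsewhere, 3.9 kb downstream of the canonical start. LTBP3 had a body peak in B1 alone, at 4.77.

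The order of the levels was resolved only in part. Members were ordered by mean percentile, as LTBP1, TGFBI, LTBP3, LTBP4, TGFB1, LTBP2, TGFB2, INHBA and TGFB3. Of the 8 pairs of neighbours in that order, TGFB1 and LTBP2 alone differed in log2 fold enrichment by more than the SD over replicates, by 0.38 ± 0.19 (SD, n = 3), with TGFB1 higher in 3 of 3 replicates and counting intervals that overlapped in each. The exact two-sided sign-flip test over 3 replicates cannot give a p below 0.25, which is the value for this pair, so no difference could pass 0.05. LTBP1 and TGFBI differed by 0.11 ± 0.21 and LTBP4 and TGFB1 by 0.04 ± 0.42, within the spread between replicates. Of all 36 pairs, 22 had the same direction in each replicate. Against the median bound gene of the same replicate, LTBP1 was lower by 0.57 ± 0.08 and TGFB3 by 1.80 ± 0.34 on the log2 scale, and each of the 9 genes was lower in 3 of 3 replicates (exact sign-flip test, p = 0.25 each).

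**Figure D4:**
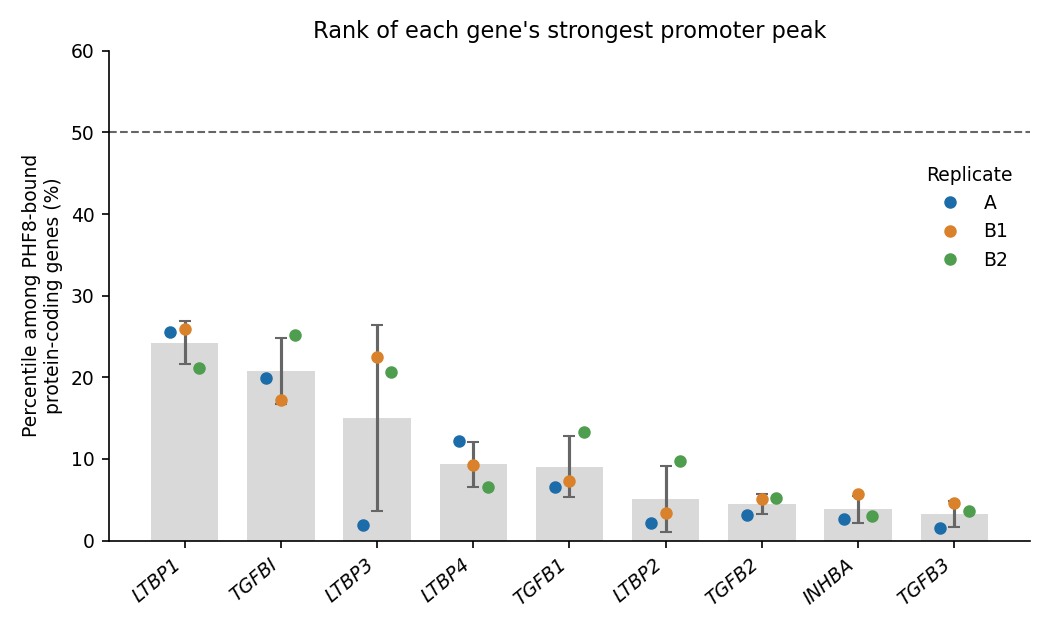
Percentile of the fold enrichment of the strongest promoter peak among bound protein-coding genes of the same replicate, for the 9 bound members in the order of their means. Bars are means, error bars SD over the 3 replicates shown as points, and the dashed line marks the middle of all bound genes, under which every point lies; A stands apart for LTBP3, at 1.93 against 22.5 and 20.6.

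Summits lay close to transcription starts, as they did for other genes. Of the 27 strongest promoter summits, which count each bound member once in each replicate, 25 were within 250 bp of a start of their gene. The exceptions were those of TGFB3 in A (401 bp) and B1 (403 bp). Over all bound protein-coding genes, 81.3 to 81.7% in each replicate were within 250 bp. The 27 summits fell in a UTR in 15 cases, in an intron in 6, in coding sequence in 4 and upstream of the gene in 2. Within 1 kb of the canonical start, 8 of the 10 genes had a peak in all 3 replicates, where 58.1% of protein-coding genes did. INHBA and INHBB were those without.

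CpG content was set beside binding. At 7 of the 10 genes the 501 bp around the canonical start were CpG-island-like, here a GC share of 0.5 or more and a CpG number 0.6 or more of that expected from the C and G present, and 6 of these 7 starts were bound. Of all such canonical starts 79.9% were bound. The others were TGFB2, TGFB3 and INHBA, of which TGFB3 missed the GC limit narrowly (49.7%), and TGFB2 and TGFB3 were bound although 12.2% of canonical starts of this kind were. Both also had a summit in DNA richer in CpG than the canonical start, with 46 CpG in A and 47 in B2 for TGFB2, and 49 in each replicate for TGFB3. Among genes with a bound canonical start, the median of the mean percentile was 53.6 for CpG-island-like starts (quartiles 30.4 and 74.7) and 24.7 for the others (8.79 and 49.0). These percentiles rank the strongest promoter peak at any start of a gene, which for LTBP4 lay at an internal start, so they are not levels at the canonical start alone. All 8 members with a bound canonical start lay under the lower quartile of their class by their mean percentile, with LTBP1 at 24.2 and TGFB2 at 4.50.

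**Figure D5:**
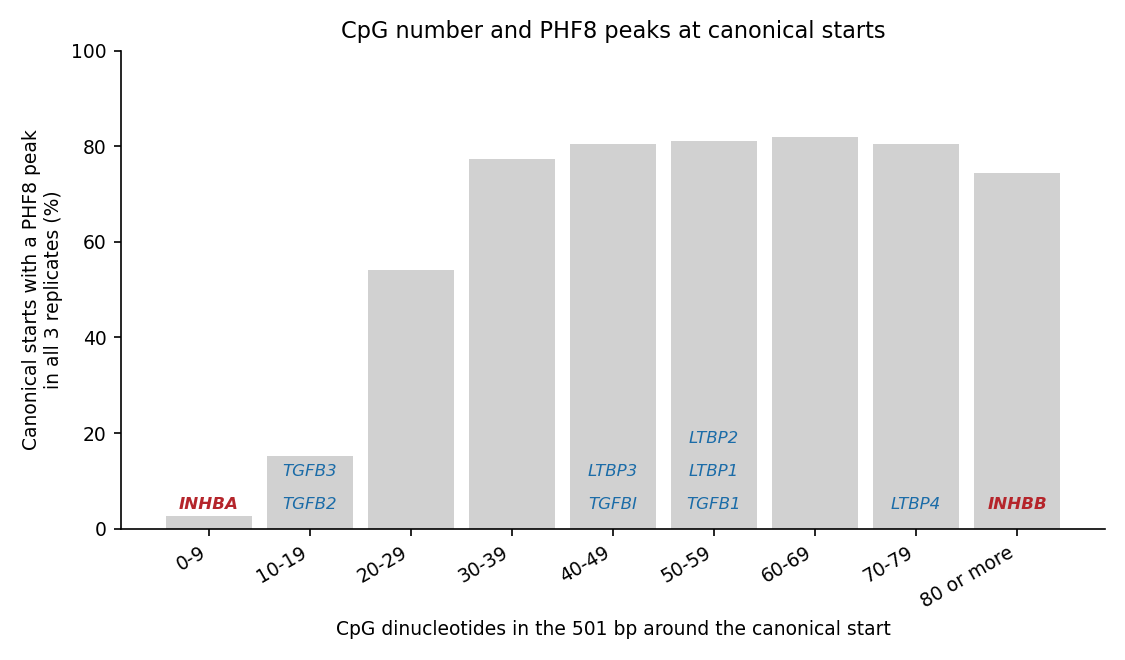
Share of canonical starts of protein-coding genes with a PHF8 peak in all 3 replicates (bars, %), by the number of CpG in the 501 bp around the start. Member names stand in the bar of their own CpG number, blue where the canonical start was bound and bold red where it was not; INHBA is in the lowest class (2.55% bound) and INHBB in the highest (74.4%).

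The 250 bp before the canonical starts were searched on both strands for GGGCGG (the GC box), CACGTG (the E-box of MYC and MITF), TGANTCA (the AP-1 site) and TATAAA (the TATA box), none of which contains another. The GC box was found in 6 of the 10 (59.1% of all 19881 promoters), at TGFB1, TGFBI, INHBB, LTBP2, LTBP3 and LTBP4. TATAAA was found at TGFB2, TGFB3 and INHBA (9.26% of all promoters), which are the same 3 genes whose canonical starts were not CpG-island-like. CACGTG was found at TGFB2 (7.87%) and TGANTCA at none (4.69%). INHBB, with no peak, held the most GC boxes of the set, 10 against 6 at TGFB1.

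Other genes of the pathway, taken as a list of 48, were bound in 29 cases (60.4%), close to the 60.2% of all protein-coding genes. Of the other ligands of the family 4 of 14 were bound, from BMP4 (mean percentile 13.6) to INHA (42.2), the inhibin alpha subunit. INHBC, INHBE, NODAL, LEFTY1, LEFTY2, MSTN, GDF15, BMP6, BMP7 and AMH were not bound in all 3 replicates. Genes that hold or activate latent TGFβ were bound in 10 of 12 cases. They ranged from EMILIN1 (4.61), which restrains proteolysis of the TGFβ precursor, to ITGAV (58.9), a subunit of the integrins that release TGFβ, and LRRC32 and ITGB6 were without a shared peak. Matrix relatives and extracellular inhibitors were bound at FST (5.41) and FSTL3 (88.8), both of which encode activin antagonists, and not at POSTN, DCN, BGN, NOG, GREM1 or CHRD. Receptor genes were bound in 8 of 9 cases, from ACVR2B (17.9) to ACVR1B (83.9), with TGFBR3 as the exception, and all 5 SMAD genes were bound, from SMAD7 (9.70) to SMAD4 (66.8). The median of the mean percentiles was 47.1 over the bound matrix relatives and inhibitors, 44.7 over bound receptor genes, 21.0 over the other bound ligands of the family, 13.7 over SMAD genes, 13.0 over the latency and activation genes and 9.03 over the 9 bound members.

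Markers of cell types were listed as well, although a peak shows binding and not expression. Of 8 melanocyte lineage genes 3 were bound (MITF, SOX10 and PMEL) and MLANA, TYR, TYRP1, DCT and S100B were not, a share of 37.5% beside the 60.2% of all protein-coding genes. Of 7 markers of other cell types 1 was bound (EPCAM). These counts therefore do not check the cell type.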

How the data were processed

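PHF8 ChIP-seq of SKMEL-147 cells was analysed from 1 peak list for each of 3 ChIP replicates. The 2 inputs enter only through these lists. The authors aligned reads to hg19 with Bowtie2 and called narrow peaks with MACS for each replicate separately against input, with cutoffs of 1.5 on fold enrichment and 0.05 on the q-value. The submitters' processing notes also name bcl2fastq and Picard. The caller is named MACS in the methods and MACS2 in a figure legend of the study, and its release number and the treatment of duplicates are not given in the sources used here. The deposited columns used were the fold enrichment over input (a ratio), -log10 p-values and -log10 q-values, and the summit offset, and the deposited score is 10 times the -log10 q-value. All peaks passed both cutoffs.

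Peaks were joined to GENCODE release 44 lifted to GRCh37 (64440 genes, 221291 gene and start pairs) when they overlapped by at least 1 bp. Gene-body peaks met no 1 kb window of their own gene. Percentiles were taken over protein-coding genes bound in all 3 replicates. ChIP fragments per summit were solved from fold enrichment and p-value, and were whole numbers (to 0.001 in -log10 p) for 100% of peaks. This step and the joining to genes were tested on simulated data. Base composition was read from GRCh37. Python 3.11.15, numpy 2.4.6, scipy 1.17.1 and pandas 2.3.3 were used. The members and lists were chosen with earlier results of these data known. All 10 members were named in every replicate, and other pathway genes only where highest, lowest or unbound in their role. Alternatives were other q-value, fold and window limits, the summit in place of the whole peak, fewer starts, 2 of 3 replicates, fragments in place of fold, and leaving out each replicate.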

Additional observations from a re-analysis of the deposited data

How the results depend on the processing

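The number of bound members stayed at 8 or 9 under every alternative but a fold enrichment above 10, where it was 2 (LTBP1 and TGFBI). With the 5′ end of the gene record as the only start it was 8, without LTBP4. At a fold enrichment above 10, 18 of the other pathway genes were bound in place of 29, and 1 member had a gene-body peak in place of 2. That number was also 1 with a window of 2 kb, and 1 when the peaks had to overlap in all 3 replicates, an alternative chosen after seeing the data. With the 2 kb window the B2 body peak of LTBP4, whose summit lay 1186 bp before an internal start, counted as a promoter peak. The median percentile of the members, 6.70, ranged from 5.99 to 8.62 with 1 replicate left out and was 7.66 by fragments and 8.08 over targets of all gene types. The number of neighbouring pairs that differed by more than the SD was 1, and 2 to 5 with 1 replicate left out (2 without A, 2 without B1 and 5 without B2), where the SD rests on 2 values. Single genes moved by more than their SD in 3 cases. At a fold enrichment above 10, where the weaker bound genes leave the ranking, LTBP1 went from a mean percentile of 24.2 to 9.30 and TGFBI from 20.8 to 6.13, and ranked by fragments LTBP1 went to 20.6. No paired comparison of conditions was possible because only the PHF8 ChIP group has values and there is no second group to pair it with. Differences between genes were taken within each replicate. Depth limits the lowest levels, since summits under 8 fragments (10 in B2) were not called.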
